A study of Arabidopsis thaliana with 25 samples.

Results

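The mitochondrial ribosomal RNAs (rRNAs) of *Arabidopsis thaliana*, 18S of the small subunit (ATMG01390) and 26S of the large subunit (ATMG00020), each carry 1 of the 7 cytosines listed as 5-methylcytosine (m5C) in the deposited rRNA tables. They were chosen by compartment and are 2 of the 5 rRNAs with a listed site. The other rRNAs are the chloroplast 16S and 23S, with 3 sites, and the nuclear 25S, with 2 sites. RNA bisulfite sequencing (RBS-seq) of total seedling RNA was used, in which unmethylated cytosine is read as thymine and m5C stays cytosine. Here a methylation level is the share, in percent, of mapped bases at the position that were still cytosine. The method does not tell m5C apart from a cytosine that escaped conversion for another reason.

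All groups were Columbia ecotype seedlings collected 10 days after germination, and each mutant carries a T-DNA insertion in the named gene. Experiment 1 was grown on soil and had 20 libraries. Wild type and the mutants nsun5-1, nop2c-1, nop2b-1 and nop2a-2 (also called oli2-2) had 3 libraries, the second alleles nsun5-2 and nop2c-2 had 2, and nop2b-2 had 1. Experiment 2 was grown on plates and had 5 libraries, 1 per genotype, from wild type, from the single mutants trdmt1, trm4a and trm4b-1, and from the double mutant trdmt1 trm4b, which combines trdmt1 with the trm4b-1 allele. Each of the 13 genotype columns holds 1 level per site, which in experiment 1 is the authors' average over libraries wherever a genotype had more than 1. The spread between libraries and the read depth at a site are unknown, so single levels carry no SD and no interval.

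Mitochondrial rRNAs form the ribosome that translates the few proteins still encoded in the mitochondrial genome, and that ribosome descends from a bacterial one. In *Escherichia coli*, m5C is made in 16S rRNA by the enzymes RsmB and RsmF and in 23S rRNA by RlmI, so both subunits of a bacterial ribosome carry the mark. The genes mutated here encode candidate RNA cytosine methyltransferases. NOP2A, NOP2B and NOP2C are homologues of yeast Nop2, and NSUN5 is a homologue of yeast Rcm1, both of which methylate the large nuclear rRNA. TRM4A and TRM4B are homologues of the tRNA methyltransferase TRM4 (NSUN2 in animals), and TRDMT1 is a tRNA methyltransferase of the DNMT2 family.

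The 2 mitochondrial sites are shown with 15 bases on either side, together with the chloroplast site that aligned to each, because these pairs are the base of the comparisons that follow. The letters are those of the deposited reference table, 5′ to 3′, with T for U, and the capital marks the listed cytosine. Positions are counted from 1 at the 5′ end of each deposited rRNA.
Mitochondrial 18S, positions 945 to 975: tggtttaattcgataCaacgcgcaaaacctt
Chloroplast 16S, positions 901 to 931: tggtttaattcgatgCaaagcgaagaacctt
Mitochondrial 26S, positions 1571 to 1601: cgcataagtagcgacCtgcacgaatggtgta
Chloroplast 23S, positions 1962 to 1992: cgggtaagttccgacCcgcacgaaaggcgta
The 18S site is C960 of 1935 nt. The 26S site is printed as C15860 in the deposited tables, past the end of the 2568-nt sequence, and was read as C1586, which is a cytosine. Global, local and MAFFT alignments all placed C960 opposite chloroplast 16S C916 and C1586 opposite chloroplast 23S C1977. So both mitochondrial sites had a counterpart among the listed chloroplast sites.

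In the 21 bases centred on each site, 17 were identical between mitochondrion and chloroplast in both pairs. With the mitochondrial base written first and positions counted along the mitochondrial rRNA, the 18S pair differed by A959G, C963A, C967A and A969G, and the 26S pair by A1580T, G1581C, T1587C and T1595A. The base just before C960 and the base just after C1586 were therefore among those that differed. Of the windows centred on 18S cytosines with an aligned base, 50.5% had fewer identical bases than that of C960. For C1586 this share was 73.2% of the windows of 26S. A cytosine in the chloroplast rRNA opposed 80% of the 320 aligned 18S cytosines and 76.3% of the 477 aligned 26S cytosines, so a cytosine opposite a mitochondrial cytosine was common throughout both molecules.

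The chloroplast 23S has a further listed site, C1940, which aligned to mitochondrial 26S C1549 under all 3 alignments. This pair is shown because the letters are alike and the Arabidopsis tables hold a level for the chloroplast cytosine only.
Chloroplast 23S, positions 1925 to 1955: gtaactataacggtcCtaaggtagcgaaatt
Mitochondrial 26S, positions 1534 to 1564: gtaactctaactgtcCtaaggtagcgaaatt
Of the 21 bases around this cytosine, 19 were identical. No level is given for C1549 in either Arabidopsis table, and its coverage there is unknown, so nothing follows on its methylation. The nuclear sites had no such counterpart among the listed mitochondrial ones. Nuclear 25S C2268 aligned to a guanine at position 1559 of mitochondrial 26S, and nuclear 25S C2860 aligned to the cytosine at position 2112. In the other direction, C1586 aligned to a guanine at position 2295 of nuclear 25S. For C960 the nuclear 18S partner depended on the method, being the cytosine at position 1196 in the global and local alignments and position 974 with MAFFT.

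The first question was at what level each mitochondrial rRNA is methylated. C960 of 18S was 28% in wild type of experiment 1. Among the nop2 mutants of that experiment, nop2a-2 had 18%, nop2b-1 27%, nop2b-2 2.33%, nop2c-1 24% and nop2c-2 27.9%. The nsun5 alleles had 33% in nsun5-1 and 27.3% in nsun5-2. In experiment 2 it was 30% in wild type, trm4a and trdmt1, 22% in trm4b-1 and 32% in trdmt1 trm4b. The order of the 13 levels ran from nsun5-1 at the top through a middle group between 22% and 32% to nop2a-2 and, far below, the single nop2b-2 library. The study accepted a site from 20% upward, and 11 of the 13 levels at C960 passed that mark, all but those of nop2a-2 and nop2b-2. Because the spread between libraries is not known, neighbours in this order cannot be told apart.

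C1586 of 26S was 72% in wild type of experiment 1. Here nop2a-2 had 78%, nop2b-1 62%, nop2b-2 70.8%, nop2c-1 73% and nop2c-2 65.5%. The nsun5 alleles had 73% in nsun5-1 and 71.0% in nsun5-2. In experiment 2 it was 77% in wild type, 74% in trm4a, 78% in trm4b-1, 75% in trdmt1 and 83% in trdmt1 trm4b. The highest level was thus that of the double mutant and the lowest that of nop2b-1. The 11 levels between them, from 65.5% to 78%, had no gap between neighbours in the order of more than 5.25 points.

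**Figure D1:**
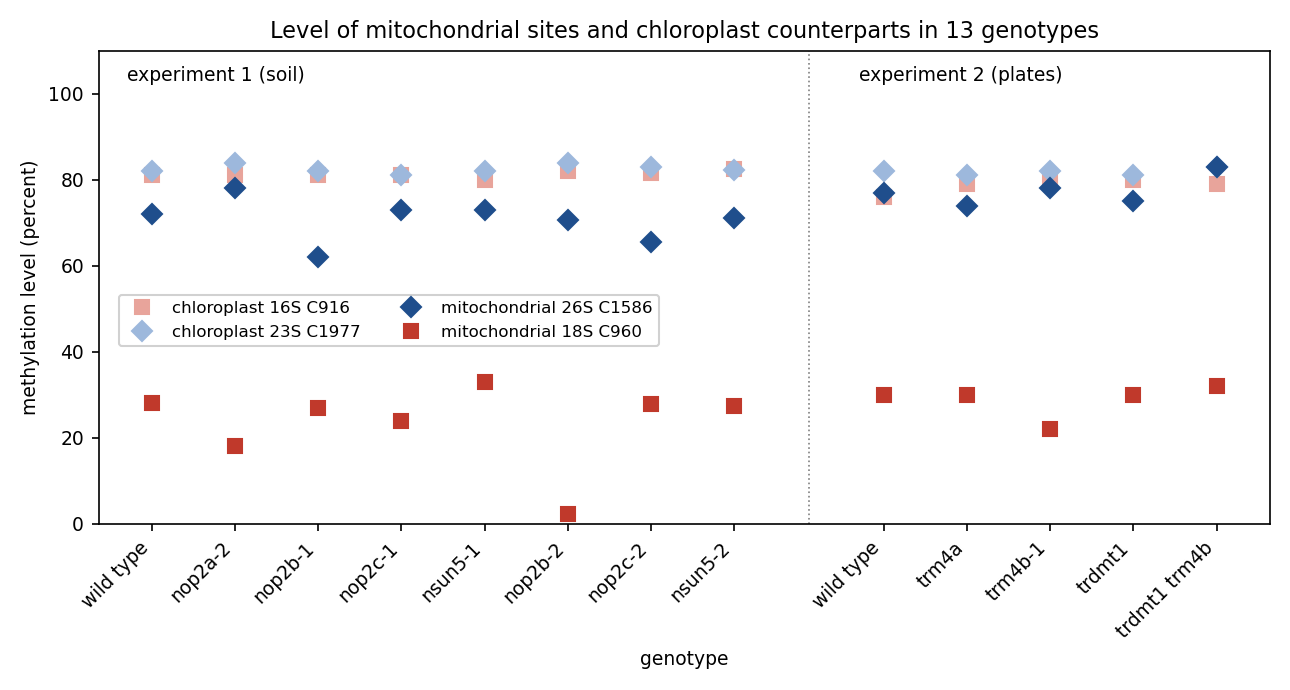
Methylation level in percent (y axis) in each of the 13 genotypes (x axis) at the mitochondrial sites 18S C960 and 26S C1586 and at the chloroplast sites that aligned to them, 16S C916 and 23S C1977. Each point is 1 deposited genotype value, with no error available. C960 lies between 2.33% and 33% in every genotype, and the other 3 sites lie between 62% and 84%.

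C960 was lower than C1586 in 13 of 13 genotypes. Its mean over genotypes was 25.5% ± 8.09 (SD, n = 13), against 73.3% ± 5.46 (SD, n = 13) for C1586. The mean paired difference was −47.8 points with an SD of 9.29, and single genotypes ranged from −68.4 points in nop2b-2 to −35 points in nop2b-1. A two-sided exact permutation test of this difference, flipping signs within genotypes, gave p = 0.000244, the smallest these 13 genotypes allow, and p = 0.000732 after Benjamini-Hochberg adjustment over the 21 pairs of sites. By this test 16 of the 21 pairs (76.2%) were called at an adjusted p under 0.05, so a difference between sites was common. Genotype values are the units here. Several of them share a mutated gene or an allele, and some are averages while others are single libraries. The p-values therefore do not measure variation between replicates. Experiment 2 alone, with 5 genotypes, cannot reach the threshold (exact permutation p = 0.0625).

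Both mitochondrial sites were lower than their chloroplast counterparts in the same libraries. C960 minus 16S C916 averaged −54.8 points (SD 8.94), and C960 was the lower in 13 of 13 genotypes (adjusted exact permutation p = 0.000732). C1586 minus 23S C1977 averaged −8.99 points (SD 5.48), and C1586 was the lower in 12 of 13 genotypes, with equal levels of 83% in trdmt1 trm4b (adjusted exact permutation p = 0.00114). This last difference was −11.9 points in experiment 1 alone and −4.4 points in experiment 2 alone. The difference of C1586 from 23S C1940, the other listed chloroplast site of the large subunit, averaged 1.44 points (SD 4.58), ranged from −9 to 7 points and was not called (adjusted exact permutation p = 0.315).

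The levels of the mitochondrial sites varied more across genotypes than those of the chloroplast sites. Over the 13 genotypes the range was 30.7 points at C960 and 21 points at C1586, against 6.41 points at C916, 6 at C1940 and 3 at C1977. The SD was 8.09 points at C960 and 5.46 at C1586, and between 0.981 and 1.91 points at the 3 chloroplast sites. At the nuclear 25S sites it was 23.7 points at C2268, nsun5 alleles included, and 2.86 at C2860. In experiment 2 alone the nuclear SDs were 5.17 and 4.18 points, above the 3.90 at C960 and 3.51 at C1586. A spread wider than that of the chloroplast sites was thus not particular to the mitochondrial ones. Without nop2b-2, which had 1 library, the SD of C960 was 4.29 points and its range was 15 points. On the logit scale, which allows for the position of a level between 0 and 100%, the SD without nop2b-2 was 0.226 at C960 and 0.286 at C1586, against 0.0606 to 0.0986 at the chloroplast sites. The difference in spread was not tested, and the read depth behind the mitochondrial and chloroplast levels is unknown.

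The second question was whether loss of a single candidate methyltransferase altered the mitochondrial levels. In experiment 1, 1 of 14 pairs of a mutant and a mitochondrial site lay more than 10 points from wild type of the same experiment, against 4 of 49 pairs (8.16%) over all 7 sites. These 4 include the mitochondrial pair, with 0 of 21 at the chloroplast sites and 3 of 14 at the nuclear sites. The nuclear 3 were all at 25S C2268, in nsun5-1 (−64 points), nsun5-2 (−36.8 points) and nop2b-1 (18 points). The mitochondrial pair was C960 in nop2b-2, which stood at −25.7 points, the wild type having 28% and this library 2.33%. The other allele of the same gene, nop2b-1, had 27% at C960, which is 1 point below wild type and 24.7 points above nop2b-2. In the same nop2b-2 library C1586 was 70.8%, 1.25 points below wild type. The low level was therefore seen in 1 library, at 1 site and in 1 of 2 alleles, and it has no replicate.

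A further 2 pairs stood at 10 points. The levels of wild type, nop2a-2 and nop2b-1 are given in whole percent only, so these 2 pairs may lie on either side of the limit. C960 in nop2a-2 was 10 points below wild type, at 64.3% of its level, while C1586 in the same genotype was 6 points above. C1586 in nop2b-1 was 10 points below wild type, and in nop2b-2 1.25 points below. Against the mean of both wild types these pairs were past the limit as well, making 3 of 14. Against the mean of the other genotypes of the experiment there were also 3 of 14, but with C960 in nsun5-1, at 11.8 points, in place of C960 in nop2a-2. With a limit of 5 points the count was 5 of 14. In experiment 1 the chloroplast pairs lay between −1 and 4 points from wild type, and the nuclear pairs between −64 and 18. The counts under these alternatives were not made over all listed sites. They therefore have no background share beside them, and nothing is read from them about the mitochondrial sites.

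Where a gene had 2 alleles, their mitochondrial levels could also be set side by side. The alleles of NOP2C differed by 3.90 points at C960 and by 7.49 points at C1586. Those of NSUN5 differed by 5.70 points at C960 and by 1.95 points at C1586. At C1586, nop2c-1 was 1 point above wild type and nop2c-2 differed by −6.49 points, on opposite sides of it. Against the mean of both wild types they were −1.5 and −8.99 points, on the same side. At C960, nsun5-1 was 5 points above wild type and nsun5-2 differed by −0.70 points, while against the other genotypes of the experiment both were higher, by 11.8 and 6.10 points. In none of NOP2B, NOP2C and NSUN5 did both alleles lie more than 10 points from wild type at a mitochondrial site.

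In experiment 2, 0 of 8 pairs of a mutant and a mitochondrial site lay more than 10 points from wild type, as did 0 of 28 (0%) over all 7 sites. C960 was 8 points lower in trm4b-1 than in wild type and 2 points higher in trdmt1 trm4b, which carries the same trm4b allele. C1586 was 6 points higher in trdmt1 trm4b, 1 point higher in trm4b-1, 2 points lower in trdmt1 and 3 points lower in trm4a. Each of these is the difference of 2 single libraries.

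**Figure D2:**
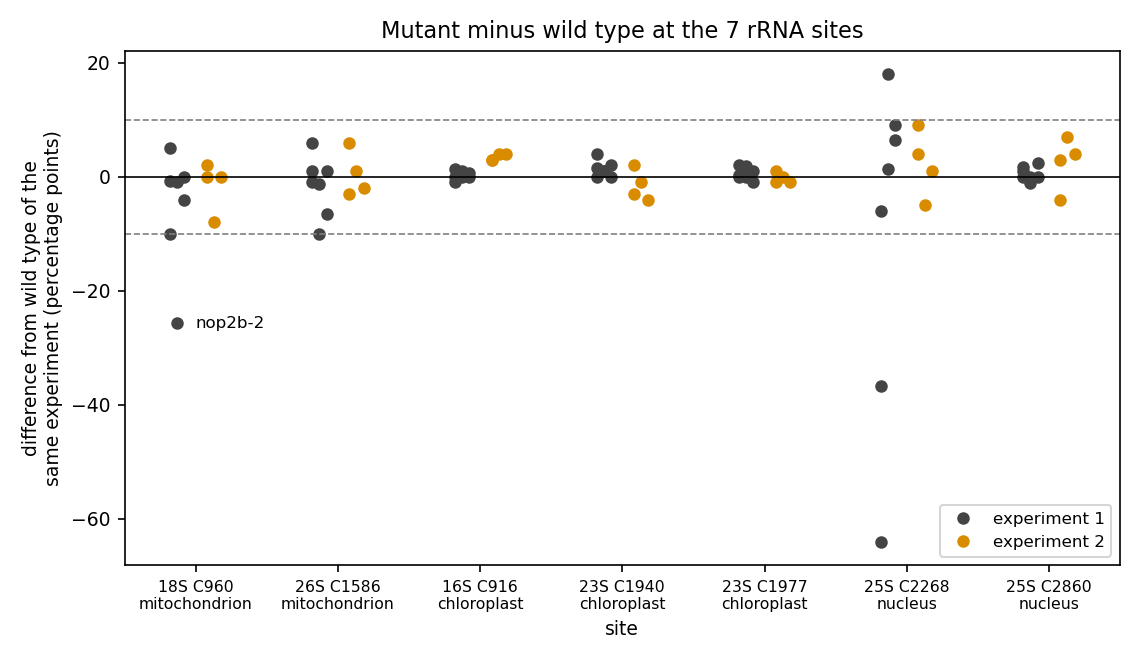
Difference of each mutant from wild type of its own experiment in percentage points (y axis) at the 7 listed sites (x axis). Each point is 1 mutant, grey for experiment 1 and orange for experiment 2, and dashed lines mark 10 points. Only nop2b-2 at C960 is past a line among the mitochondrial points, at −25.7, while the chloroplast points lie between −4 and 4.

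Absolute differences from wild type averaged 5.23 points over the 14 mitochondrial pairs of experiment 1 and 0.934 points over the 21 chloroplast pairs (median 2.62 and 0.954 points). In experiment 2 these means were 2.75 points over 8 mitochondrial pairs and 2.25 points over 12 chloroplast pairs (median 2 and 2.5 points). So the mitochondrial pairs stood farther from wild type than the chloroplast pairs in experiment 1. In experiment 2 the means and the medians gave opposite orders. The mutants of an experiment share 1 wild type value, and these means were not tested.

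The experiments differed in growth medium and in their set of mutants, which cannot be told apart. C1586 averaged 70.7% ± 4.90 (SD, n = 8) in experiment 1 and 77.4% ± 3.51 (SD, n = 5) in experiment 2, a difference of 6.74 points. The two-sided exact permutation test over genotypes gave p = 0.0218, and p = 0.0761 after adjustment over the 7 sites, of which 1 (14.3%) was called and 2 (28.6%) had an unadjusted p under 0.05. Without nop2a-2 the difference was 7.78 points (adjusted exact permutation p = 0.0133), so the call at C1586 turned on that genotype. The wild types differed in the same direction, by 5 points. C960 averaged 23.4% ± 9.53 (SD, n = 8) and 28.8% ± 3.90 (SD, n = 5), a difference of 5.36 points (adjusted exact permutation p = 0.287) that fell to 2.34 points without nop2b-2.

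The levels of the mitochondrial sites were also compared with each other across genotypes. With levels centred on the mean of their experiment, Pearson's r between C960 and C1586 was −0.149 over 13 genotypes, and −0.260 without nop2b-2. The sites most like C1586 by this measure were both in chloroplast 23S, C1940 (r = 0.466) and C1977 (r = 0.407). C960 had no site with a positive r, the highest being −0.0149 for 25S C2860 and −0.116 for C1940. These correlations share their libraries and are given as a description. Within experiment 1 alone (8 genotypes) they were 0.230 and 0.218 for C1586 with C1940 and C1977, and 0.656 for C960 with C2860. Without nop2b-2, the lowest at both of these sites in experiment 1, the centred r of C960 with C2860 over the remaining 12 genotypes was −0.304.

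The third question was whether the mitochondrial sites are present in the rRNAs of other species. The deposited table gives mitochondrial sequences for *Brassica rapa*, *Triticum durum* (durum wheat), *Ginkgo biloba* and the green alga *Caulerpa taxifolia*, and a mitochondrial 23S for the microalga *Nannochloropsis oculata*, here set beside 26S. The authors listed 1 m5C site in each of the 5 18S sequences, Arabidopsis included. In the large subunit they listed 1 site in Arabidopsis, *B. rapa* and *G. biloba*, 2 in *T. durum* and *C. taxifolia*, and 3 in *N. oculata*. The levels and positions of the sites listed in those species were not analysed here. *N. oculata* 23S was also the shortest and the poorest in cytosine, with 2237 nt and 15.6% cytosine, against 2568 nt and 23.1% in Arabidopsis 26S. The listed sites were thus 3 of 348 cytosines in *N. oculata* and 1 of 593 in Arabidopsis.

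A cytosine stood opposite C960 in all 4 other 18S sequences and opposite C1586 in all 5 other large subunit sequences. Both global and MAFFT alignments gave this. The *T. durum* 26S entry is among these 5. Its site lay in a run of 178 bases identical to its own chloroplast 23S entry. In 41 bases it had 0 mismatches to that entry and 8 to Arabidopsis mitochondrial 26S. It therefore cannot show whether a mitochondrial cytosine is kept there. A cytosine kept in every species was common among cytosines. Of the 292 18S cytosines with a known base in every species, 67.5% were cytosine in all, as were 59.0% of 373 cytosines of 26S. Several of these sequences were also assembled by the authors with the Arabidopsis sequence as a guide. The exceptions were the 23S of *N. oculata* and the 18S of *B. rapa* and *G. biloba*, which are credited to database records. The 26S entries of *B. rapa* and *G. biloba* were identical letter for letter, with 134 unknown bases each. So 26S has 4 distinct sequences to set beside Arabidopsis, that of *T. durum* included.

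The 21-base windows around the sites were close to the middle of their own rRNA in conservation. Averaged over species, 90.5% of the bases around C960 were identical to Arabidopsis, with a median of 88.1% over windows centred on 18S cytosines, and 61.0% of those windows were less conserved. Around C1586 the average over the 4 distinct sequences was 86.9%, equal to the median of 86.9% for 26S, and 49.3% of windows were less conserved. With the identical *B. rapa* and *G. biloba* entries both counted, these values were 89.5%, 88.6% and 51.2%. The values for C960 and both sets of values for C1586 include the *T. durum* entries, and values without them were not computed. The position within the distribution depended on the window and the species. For *C. taxifolia* 18S, 67.5% of windows had fewer identical bases than that of C960, and 95.6% did with 20 bases on either side.

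**Figure D3:**
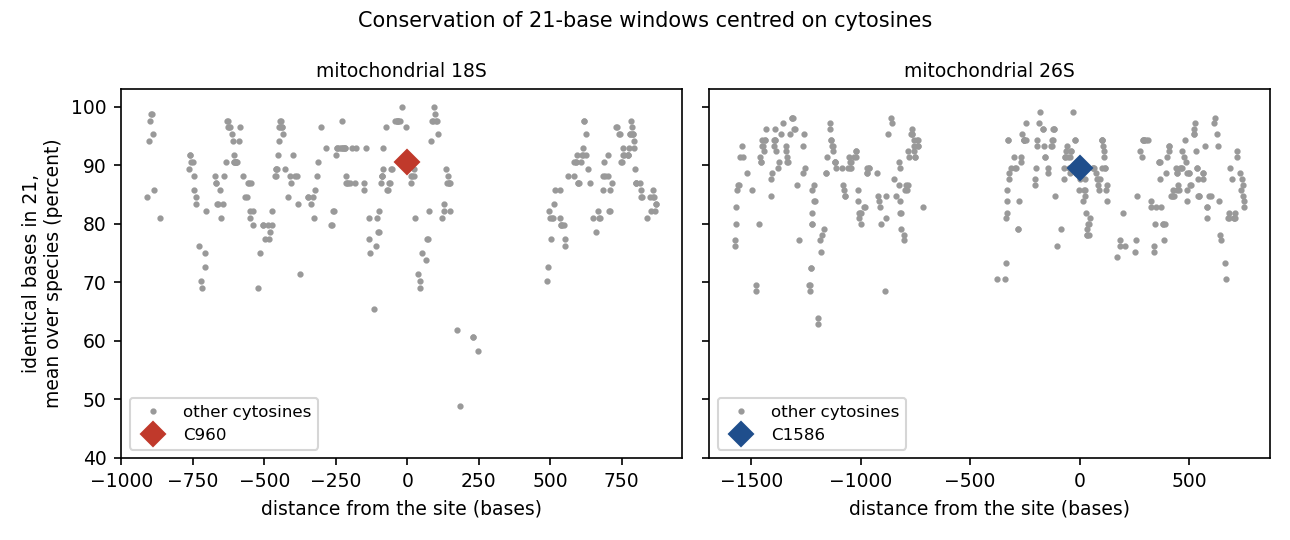
Identical bases in 21-base windows centred on cytosines of mitochondrial 18S (left) and 26S (right), averaged over the other species in percent (y axis), by distance from the listed site in bases (x axis). Grey points are other cytosines with a known base in every species and the coloured diamonds are the sites, with both identical 26S entries counted. C960 at 90.5% and C1586 at 89.5% lie within the grey points, whose medians are 88.1% and 88.6%.

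The differences around the sites were few and recurred between species. *B. rapa* 18S differed from Arabidopsis by A969G alone and *G. biloba* by A959G alone. *C. taxifolia* had A959G, C967A and A969G, and *T. durum* had C963A, C967A and A969G. All of these are changes that the Arabidopsis chloroplast 16S also shows against mitochondrial 18S. Around C1586, *N. oculata* had A1580T, G1581C and C1591T, and *C. taxifolia* had A1580T, G1581T, T1587C and T1595A. *T. durum* had A1580T, G1581C, T1587C and T1595A, which are exactly the letters of the Arabidopsis chloroplast.

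The *T. durum* sequences are shown because the mitochondrial 26S entry carries the letters of a plastid rRNA around the site. The 18S entry does so from the site onward, but not at the base before it. Capitals mark the base aligned to C960 or C1586.
*T. durum* mitochondrial 18S, centred on position 937: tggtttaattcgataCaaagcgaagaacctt
*T. durum* chloroplast 16S, centred on position 917: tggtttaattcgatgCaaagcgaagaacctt
*T. durum* mitochondrial 26S, centred on position 1571: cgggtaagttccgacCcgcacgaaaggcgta
*T. durum* chloroplast 23S, centred on position 2057: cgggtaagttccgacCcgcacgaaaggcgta
The 26S site lay in a run of 178 bases, positions 1497 to 1674, identical to the *T. durum* chloroplast 23S entry. Its identical run with Arabidopsis mitochondrial 26S was 5 bases. The same 178-base run held position 1534, the cytosine aligned to chloroplast C1940, so the stretch contains the counterparts of both listed chloroplast 23S sites. The number of m5C sites listed by the authors was 2 for *T. durum* 26S and 2 for its chloroplast 23S. Such a match was not particular to *T. durum*. The mitochondrial and chloroplast counts were also 2 and 2 in *C. taxifolia* and 3 and 3 in *N. oculata*. They were 1 and 2 in Arabidopsis, *B. rapa* and *G. biloba*.

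In *T. durum* 18S the letters changed close to the site. The site began a run of 56 bases, positions 937 to 992, identical to the chloroplast 16S entry, and it also lay in a run of 37 bases identical to Arabidopsis mitochondrial 18S. The base before the site was the A of Arabidopsis mitochondria and the bases after it were those of the chloroplast.

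Such stretches were spread through both *T. durum* entries. Stretches of 50 or more bases found in the plastid entry of the same species covered 53.7% of the known bases of 18S, in 6 stretches of up to 389 bases, and 29.9% of 26S, in 4 stretches of up to 355 bases. Of the 50-base windows of *T. durum* 18S, 39.1% occurred in its own chloroplast 16S and 3.21% in Arabidopsis mitochondrial 18S. For 26S these shares were 22.5% and 19.7%, and no window was found in both. In Arabidopsis, *B. rapa* and *G. biloba* the share of 50-base windows found in the own plastid was 0% for both rRNAs. It was 0.316% for *C. taxifolia* 18S, and 0% for its 26S and for *N. oculata* 23S. Likeness over shorter lengths at the 26S site was not limited to *T. durum*. In 41 bases, *C. taxifolia* had 6 mismatches to its own plastid and 11 to Arabidopsis mitochondrial 26S. *N. oculata* had 5 to each, with identical runs of 36 and 9 bases. *B. rapa* and *G. biloba* had 8 mismatches to the plastid and 0 to Arabidopsis mitochondrial 26S. The part of such shared letters in the listed sites was not tested.

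**Figure D4:**
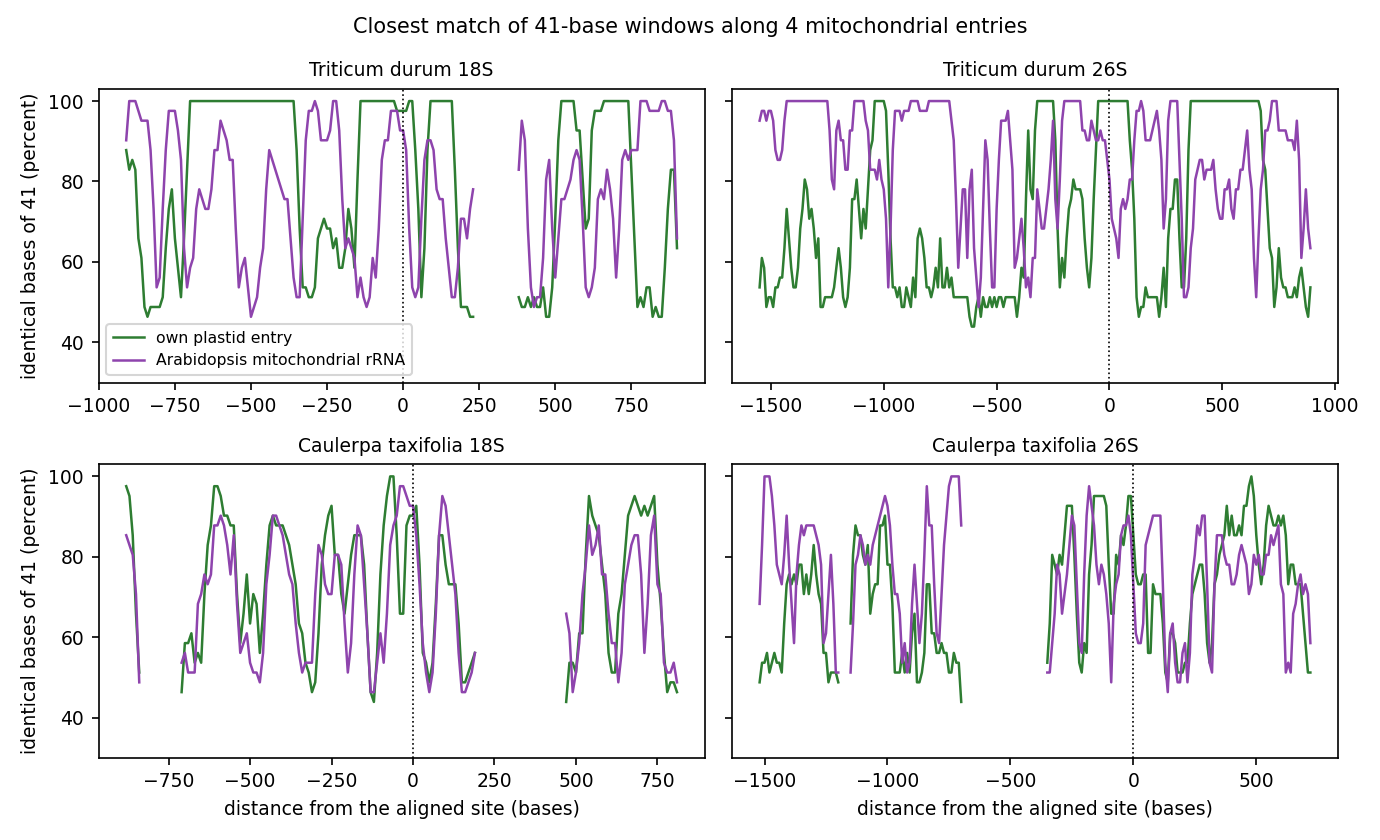
Closest ungapped match of 41-base windows, in percent of identical bases (y axis), along the mitochondrial 18S and 26S entries of *T. durum* and *C. taxifolia*, by distance from the aligned site in bases (x axis). Green is the plastid entry of the same species and purple the Arabidopsis mitochondrial rRNA, and gaps are stretches of unknown bases. In *T. durum* the green line stays at 100 for long stretches, including the 178 bases over the 26S site, and in *C. taxifolia* it does not.

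Mapping to converted references makes sequences more alike, so runs were also compared with every cytosine turned into thymine. In Arabidopsis the run shared with the own plastid over C1586 was then 13 bases in place of 5, and over C960 it stayed at 3. Windows of 50 bases over C960 differed from the closest other Arabidopsis rRNA, chloroplast 16S, by at least 1 base after conversion and 2 bases before it. Windows of 50 bases over C1586 differed from chloroplast 23S by at least 5 bases after conversion and 6 before. At 75 bases the fewest differences after conversion were 4 for C960 and 8 for C1586. No window of 30, 50 or 75 bases over either Arabidopsis site was identical to another Arabidopsis rRNA. How many reads could have been placed on both molecules is unknown, and its part in the levels was not tested.

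The bases around the sites were also folded in silico. RNAplfold predicted C1586 to be unpaired with a probability of 0.975, higher than 99.2% of the 593 cytosines of 26S, whose median was 0.245. C960 had 0.727, higher than 88.9% of the 441 cytosines of 18S, with a median of 0.245. With a shorter window these shares were 96.0% and 72.8%. The prediction rests on sequence alone and leaves out proteins and contacts between distant parts of the rRNA.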

How the data were processed

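The authors trimmed the RBS-seq reads and mapped them with CLC Genomics Workbench (version not given in the sources used here) to rRNA references with every cytosine turned into thymine. The labels name TAIR 10 as the build. The deposited tables hold percent values, made by the authors as cytosines over cytosines plus thymines, and in experiment 1 averaged over the libraries of a genotype. The spread and depth behind a value are therefore lost. Reads shared by similar rRNAs could be assigned to either and move a level. A further deposited table gives reference sequences and the authors' count of m5C sites per rRNA. Its mitochondrial small subunit of *N. oculata* was not analysed here.

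Columns were grouped by the labelled genotype and experiment, and oli2-2 was read as nop2a-2. Sites were compared by exact sign flips over 13 genotypes and experiments by exact permutation of genotypes, both two-sided, with Benjamini-Hochberg adjustment. The limit of 10 points was kept from earlier work on these tables. Members, lists and tests were chosen with earlier results of these data known. By the rule for named sites, both members are given in every genotype, and other sites only as ranges, as the 2 with the highest centred r, or where aligned to a member. Sequences were aligned with Biopython 1.88 (match 2, mismatch −2, gap opening −5, extension −0.5, free end gaps) and MAFFT 7.526. The counterpart in a plastid entry was the ungapped match of 41 bases with the fewest mismatches, a choice made after the letters were seen, as were the spread without nop2b-2 and the count of distinct sequences. Pairing was predicted with RNAplfold 2.7.2 (window 150, span 100). Python 3.11.15, NumPy 2.4.6, SciPy 1.17.1 and matplotlib 3.10.9 were used, and the tests were tested on simulated data. Alternatives were the logit scale, medians, other comparators and limits, each genotype or experiment left out, and other windows and aligners.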

Additional observations from a re-analysis of the deposited data

Results flagged for a closer look

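At C960 of mitochondrial 18S, trm4b-1 was 8 points below wild type, while trdmt1 trm4b was 2 points above trdmt1, a difference of 10 points between the same loss in 2 backgrounds. At C1586 of 26S, trdmt1 was 2 points below wild type, while trdmt1 trm4b was 5 points above trm4b-1, a difference of 7 points. Both were picked out because the direction was opposite in the 2 backgrounds. Each value is 1 library, so neither difference was tested.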

How the results depend on the processing

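No paired analysis was possible because replicate numbers could not be matched, each genotype having 1 value or 1 average. Sites were paired within genotypes only. Read depth is unknown, so it is unknown how small a difference could have been seen. Of 261 alternatives computed for 63 values, 221 were counted as unchanged. For single differences from wild type this count took no account of the 10-point limit or of the sign. C960 in nsun5-1, for example, was counted as unchanged although it went from 5 to 11.8 points against the other genotypes. No called value changed sign, but 8 differences from wild type of at most 4 points did with another comparator. At C960 these were nop2b-1 (0.63 points), nop2c-1 (1.40), nop2c-2 (5.30) and nsun5-2 (6.10) against the other genotypes. At C1586 they were nsun5-2 (0.84) against the other genotypes, and nop2c-1 and nsun5-1 (−1.5 each) and trdmt1 (0.5) against both wild types. In experiment 2 alone, C960 minus C1586 was −48.6 points, C960 minus C916 was −50 points (adjusted exact permutation p = 0.131 for both) and C1586 minus C1977 was −4.4 points (p = 0.219), so no pair was called (0 of 21), since 5 genotypes cannot reach the threshold. With a limit of 5 points the mitochondrial pairs past it were 5 in experiment 1 and 2 in experiment 2, and with both wild types, or the other genotypes, as comparator there were 3 in experiment 1. These counts have no share over all listed sites beside them. Leaving out 1 genotype at a time, C960 minus C1586 ranged from −48.8 to −46.0 points, C960 minus C916 from −55.5 to −52.7, C1586 minus C1977 from −9.73 to −8.07 and the pairs called from 16 to 17. The difference between experiments ranged from 5.34 to 7.78 points at C1586 (adjusted exact permutation p from 0.0133, without nop2a-2, to 0.226) and from 2.34 to 7.06 points at C960. With MAFFT the nuclear 18S partner of C960 was position 974. The cause of these shifts was not tested. Shares of conserved windows moved with the window length: at 5 and 20 bases on either side, 35.7% and 42.7% of *B. rapa* 18S windows were less conserved than that of C960, against 23.5%. The shares of *T. durum* windows found in its plastid fell with length but stayed far above 0, at 45.3% and 32.1% for 18S and 25.9% and 18.5% for 26S with 30 and 75 bases.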
